A study of Mus musculus with 16 samples.

Results

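The 10 genes described here are the core of the Notch pathway in skin: the receptors Notch1, Notch2 and Notch3, the ligands Jag1, Jag2 and Dll1, the nuclear mediator Rbpj, and the target genes Hes1, Hey1 and Heyl. They were chosen by symbol, through the mouse Ensembl identifiers of the tables, and all 10 were found among the 55305 gene rows that the skin table and the stem cell table share. The study asks what GRK2, a kinase that phosphorylates activated G-protein-coupled receptors, does for the hair follicle. It holds 16 bulk RNA-seq libraries of C57BL/6 mice. Whole back skin of mice aged 8 months gave 5 control and 5 eKO libraries. Hair follicle stem cells (HFSC), sorted as CD34+ α6-integrin+ cells of the follicle bulge, gave 3 control and 3 eKO libraries; their sample labels state 18 months of age, while the design text of the series states 8 months. The labels write the altered genotype as GRK2 eKO without spelling out the abbreviation, and they name neither the allele nor any driver or Cre line. The number of animals behind a library is not given either, so p-values measure the spread between these libraries only.

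Notch receptors are cleaved after they bind a ligand on a neighbouring cell. The freed intracellular part joins the DNA-binding protein RBPJ and turns on genes such as Hes1, a transcriptional repressor. In skin, Notch activity is known for promoting the differentiation of suprabasal keratinocytes and for maintaining the differentiation of the hair shaft and inner root sheath.

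The depth, as whole reads over all gene rows, was 8.21 M to 16.4 M for the skin libraries and 6.43 M to 9.39 M for the HFSC libraries (M is the SI prefix mega). Grk2 overlapped between genotypes in both tissues, at 1298 ± 144 in control and 1110.5 ± 93.8 in eKO skin (SD, n = 5 each) and at 135 ± 12.0 in control and 114 ± 8.68 in eKO HFSC (SD, n = 3 each), and did not pass the test in either. The Y-linked gene Ddx3y was listed at 0 or 0.95 in 1 library of each skin group. In HFSC it lay between 1176 and 1216 in the control libraries and between 359 and 434 in the eKO libraries. A difference in a Y-linked gene thus ran along with genotype in HFSC and cannot be told apart from it in these libraries. Its part in the HFSC results was not tested. Of the genes behind the sort, Cd34 was at 1255 ± 87.3 in control and 1186 ± 32.2 in eKO HFSC and was not called, while Itga6, which encodes α6-integrin, rose from 2159.5 ± 136 to 3222 ± 75.9 (SD, n = 3 each), without overlap. The bulge keratin gene Krt15 ran from 95754 to 119551 in HFSC. Levels are given as the authors deposited them, as normalised read counts, that is reads divided by 1 size factor for each library. Fold changes are eKO over control on the log2(value + 1) scale, tested with limma, and a gene was called where its p, adjusted over all genes tested by the Benjamini-Hochberg method, was under 0.05.

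The upstream sequences of Rbpj and Notch1 are shown because these genes were called in HFSC in opposite directions. RefSeq start sites of build GRCm38.p6 were on hand for 7 of the 10 genes, but not for the targets Hes1, Hey1 and Heyl. Rbpj lies on chromosome 5 on the plus strand and Notch1 on chromosome 2 on the minus strand, and the windows are the 250 bases just before a start site, chr5:53590096-53590345 and chr2:26503823-26504072. Capitals mark the core of the RBPJ binding motif, TGGGAA on either strand (TTCCCA when it is read on the other strand).
Rbpj: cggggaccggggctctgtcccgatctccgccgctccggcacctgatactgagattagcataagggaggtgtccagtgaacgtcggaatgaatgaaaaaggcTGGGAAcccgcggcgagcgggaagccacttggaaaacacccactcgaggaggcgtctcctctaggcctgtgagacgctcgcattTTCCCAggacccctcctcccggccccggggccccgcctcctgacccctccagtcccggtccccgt
Notch1: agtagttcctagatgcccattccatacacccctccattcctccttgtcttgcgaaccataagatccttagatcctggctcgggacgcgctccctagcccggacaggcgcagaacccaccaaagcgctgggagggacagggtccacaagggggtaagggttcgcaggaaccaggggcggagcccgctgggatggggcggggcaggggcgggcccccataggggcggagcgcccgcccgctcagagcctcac
RefSeq gives another Rbpj start further downstream, whose window overlaps this one and holds 1 match. The Rbpj window shown holds 2 matches, whose leftmost bases lie 149 and 65 bases before the start site, the first on the gene's own strand and the second on the other. The windows of Notch1, Notch2, Notch3, Jag1, Jag2 and Dll1 hold none. Of all 32851 windows of the same length in the table, 21.6% hold at least 1 match and 2.77% hold 2 or more. A match describes the letters only.

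In HFSC, 3 of the 9 Notch genes that could be tested were called. Notch1 and Hes1 rose and Rbpj fell. Over all genes tested in HFSC, 19.4% were called, 10.7% as higher and 8.74% as lower, so that 3 of 9 (33.3%) stands beside 19.4%. The groups did not overlap for 4 of the 9, the 3 called genes and Notch3, beside 36.3% of all genes tested. The median fold change of the 9 was 0.42 (log2), against −0.03 over all genes tested. The background count itself moved with single control libraries: 2673 genes were called with all 6 libraries, and 1519, 1541 and 1769 without control replicate 1, 2 or 3. With library size in place of the authors' size factors, the balance of these calls turned from 1468 higher and 1205 lower to 1268 higher and 1531 lower, while the 3 Notch genes kept their direction and call.

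**Figure D1:**
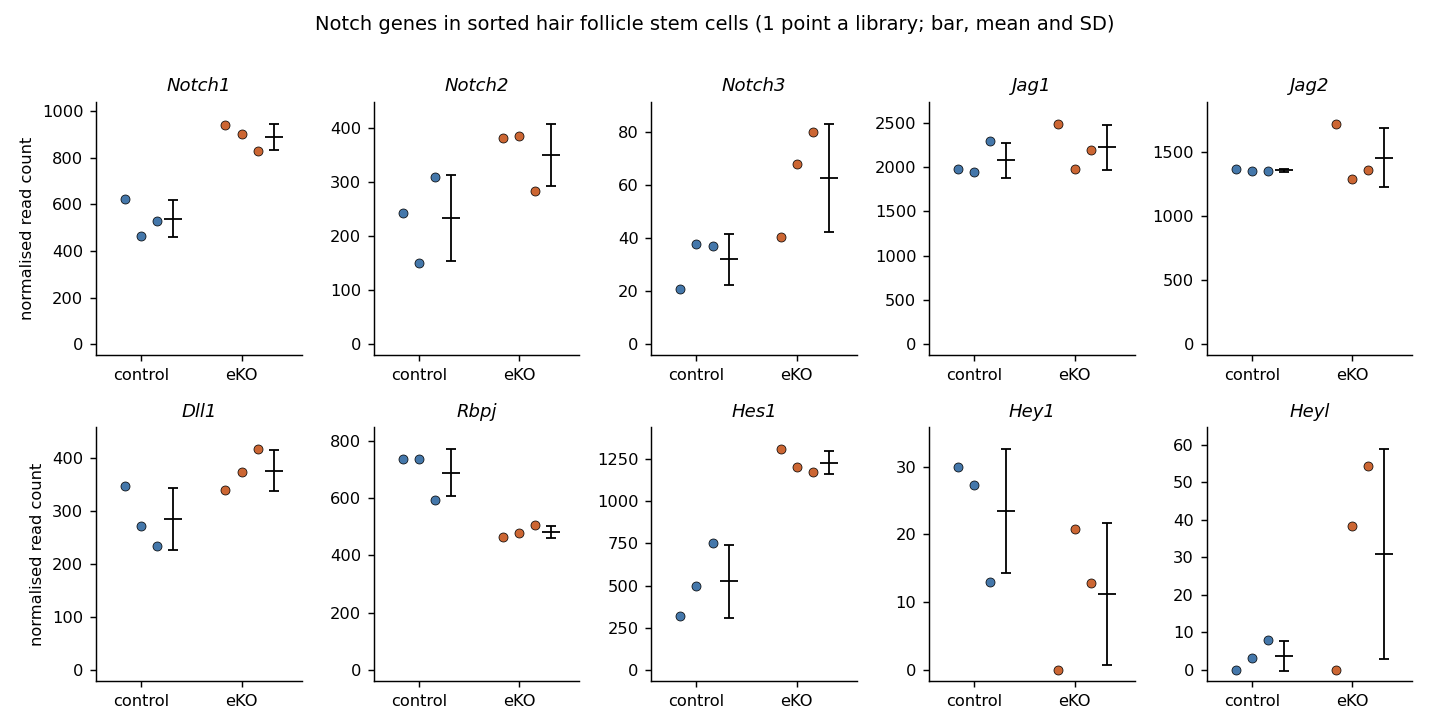
Normalised read counts of the 10 Notch genes in sorted HFSC, with 1 point for each of the 3 control and 3 eKO libraries in replicate order and a bar for the mean and SD beside them. The control and eKO points are apart for Notch1, Notch3, Rbpj and Hes1 and overlap for the other genes.

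In whole skin, none of the 10 Notch genes was called by limma, and no gene had groups that did not overlap. Of all genes tested in skin, 0.374% were called and 4.18% did not overlap. At an unadjusted p under 0.05 the count was 1 of 10, the ligand Dll1, beside 14.2% of all genes, and edgeR and DESeq2 on the recovered reads also called 0 of 10. The median fold change of the 10 genes in skin was −0.04 (log2).

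Among the receptors, Notch1, which is prominent in the epidermis and the follicle, was the one that passed the test. In HFSC it was at 624, 464 and 528 in the control libraries and at 939, 902 and 827 in the eKO libraries. Every eKO library lay above every control library. The log2 fold change was 0.73 (SE 0.14, a 1.66-fold rise), with an adjusted p of 0.00248 in limma, and the gene was called in each of the 12 alternative settings, where the fold change ran from 0.63 to 0.84. In skin, Notch1 was at 1731, 1742, 1928, 3707 and 1866 in control and at 1752, 1607, 2616, 1830.2 and 2034 in eKO. The skin groups overlapped, and the control library at 3707 stood alone. The skin fold change was −0.11 (95% interval −0.59 to 0.37), and it was 0.10 without that library.

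Notch2, the receptor with the highest level per length in skin, was at 243, 149 and 309 in control HFSC and at 382, 386 and 283 in eKO HFSC. The lowest eKO library lay under the highest control library. Its fold change of 0.63 (log2, SE 0.25) had an adjusted p of 0.0935 in limma, and without control replicate 3 it was called (0.86, adjusted p = 0.0468). In skin it was at 2846 ± 292 in control and 2522 ± 66.1 in eKO (SD, n = 5 each), with a fold change of −0.17 (95% interval −0.36 to 0.02).

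Notch3, a receptor known for its role in the mural cells of vessels, was low in HFSC. It was at 20.9, 37.9 and 37.0 in control and at 40.2, 68.0 and 79.9 in eKO. The groups did not overlap, yet the fold change of 0.94 (log2, SE 0.42) did not pass the test (adjusted p = 0.137, limma). Of the 8 mural markers, 3 could be tested in HFSC and 2 were called. Kcnj8 was called as higher (0 to 8.00 in control, 30.7 to 56.1 in eKO) and Cspg4 as lower. Kcnj8 could be tested only because its eKO level passed the filter. Acta2 (15.0 to 18.0 and 21.9 to 53.1) and Abcc9 (0 and 3.03 to 12.8) did not overlap either. Rgs5, Pdgfrb, Myh11 and Des were at 0 in every eKO library and held 10, 1, 1 and 0 reads in all control libraries together. The summed list ran from 1729 to 1991 in control and from 1532 to 1572 in eKO, mostly Cspg4, and the part of mural cells in the Notch3 values was not tested. In skin Notch3 ran from 955 to 1300.1 in control and from 896 to 1192 in eKO, with a fold change of −0.11 (95% interval −0.37 to 0.14).

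Counted per kilobase of exon (GENCODE M21 lengths), the shares of the receptors overlapped between the 2 genotypes in each tissue. In HFSC, Notch1 made up 60.0% ± 6.29 of the summed level of the 3 receptors in control and 60.9% ± 1.68 in eKO (SD, n = 3 each). Notch2 made up 33.5% ± 6.86 and 31.5% ± 3.12, and Notch3 the rest. In skin, Notch2 made up 48.0% ± 4.21 in control and 47.1% ± 2.95 in eKO (SD, n = 5 each), and Notch1 27.2% ± 5.55 and 27.6% ± 3.43. The 2 tables were normalised separately, and these shares were set side by side without a test.

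The Jagged ligands did not pass the test in either tissue. Jag1 was the most abundant ligand of HFSC per kilobase, at 57.6% ± 3.33 of the summed level of the 3 ligands in control and 56.1% ± 0.643 in eKO (SD, n = 3 each). It was at 1980, 1946 and 2299.6 in control HFSC and at 2491, 1978 and 2198 in eKO HFSC, which overlap. The interval of its log2 fold change ran from −0.14 to 0.33. Jag2 was at 1366, 1351 and 1349.7 in control HFSC and at 1720.3, 1289 and 1358 in eKO HFSC. Relative to their mean, its control libraries lay closer together than those of any other gene of the 10. The interval of Jag2 ran from −0.16 to 0.35. In skin the intervals were −0.27 to 0.75 for Jag1 and −0.50 to 0.08 for Jag2, and the groups of both genes overlapped.

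Dll1, a Delta ligand known in the epidermis for its part in signalling from basal cells, lay lower in eKO skin and higher in eKO HFSC, and neither difference passed its own test. In skin it was at 767, 697, 988, 643 and 667 in control and at 593, 654, 390, 342 and 449 in eKO. Only the eKO library at 654 reached into the control range. The skin fold change was −0.66 (log2, SE 0.19), with an unadjusted p of 0.00562 and an adjusted p of 0.164 in limma; over the alternatives its adjusted p ran from 0.05005 (DESeq2) to 0.374, and none of the 17 called it. Sebaceous gland markers moved with genotype in the same skin libraries, with summed levels of 16831 to 65678 in control and 52380 to 89286 in eKO and 3 of 8 markers called; their part in the Dll1 values was not tested. In HFSC, Dll1 was at 347, 271 and 233 in control and at 339, 373 and 415 in eKO, with a fold change of 0.42 (SE 0.18, adjusted p = 0.128, limma).

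**Figure D2:**
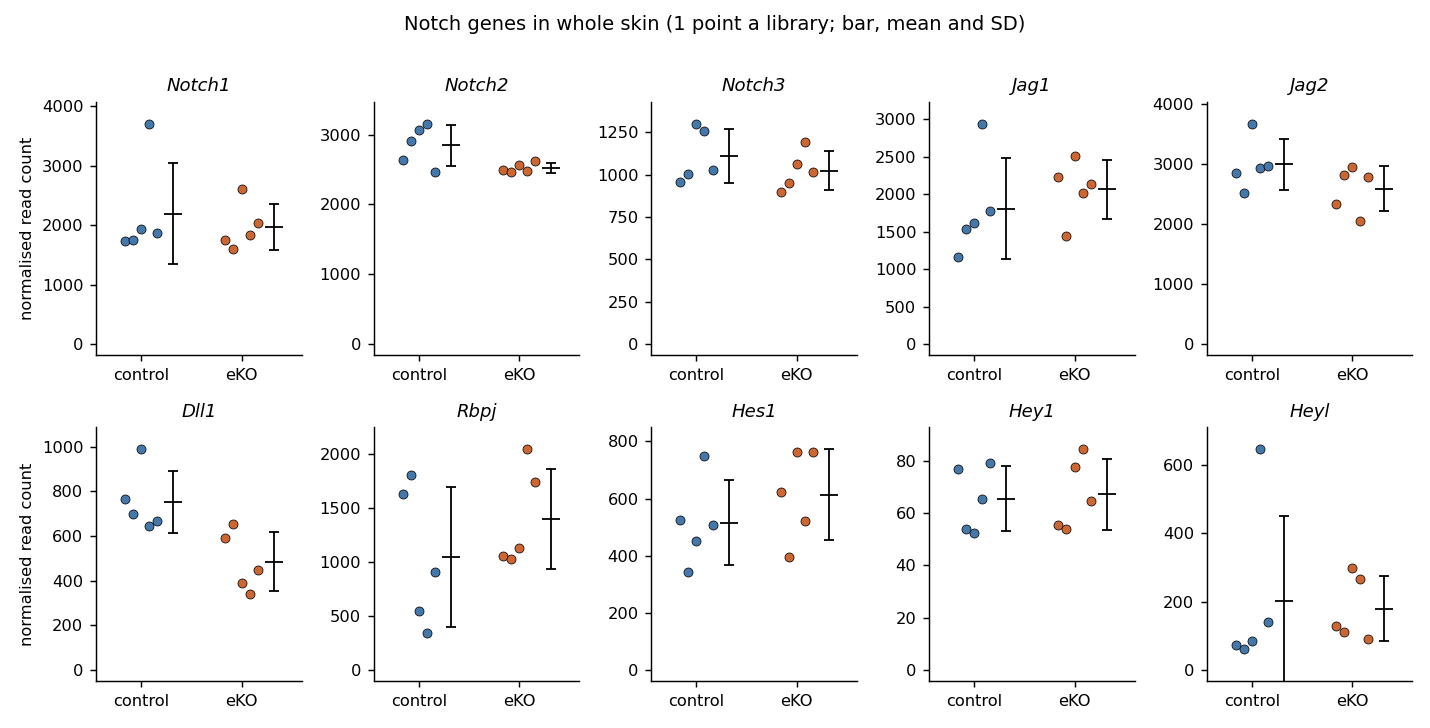
Normalised read counts of the 10 Notch genes in whole skin, with 1 point for each of the 5 control and 5 eKO libraries in replicate order and a bar for the mean and SD beside them (the bar of Heyl in control reaches below 0 and ends at the axis). The groups overlap for every gene, and a single control library stands far above the rest for Notch1 (3707) and Heyl (645).

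Rbpj, which encodes the DNA-binding partner of the cleaved receptors, fell in HFSC. It was at 735, 735 and 594 in control and at 463, 477 and 506 in eKO. The highest eKO library lay under the lowest control library. The fold change was −0.51 (log2, SE 0.14, a 1.42-fold decrease), with an adjusted p of 0.0199 in limma. Without control replicate 1 the adjusted p was 0.104, and without control replicate 2 it was also 0.104, with fold changes of −0.46 each. In skin, Rbpj varied more, relative to its mean, than any receptor did. It was at 1634, 1813, 546, 346 and 908 in control and at 1057, 1026, 1131, 2046 and 1743 in eKO. The skin groups overlapped over most of their range, and the interval of the fold change ran from −0.34 to 1.58. The names Rbpj-ps1 and Rbpj-ps3 belong to processed pseudogenes of Rbpj, and how reads shared with them were counted is not stated.

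Hes1, the most abundant of the 3 target genes, had the largest called change of the 10 genes. In HFSC it was at 322, 499.7 and 753 in control and at 1307, 1205 and 1176 in eKO. The control libraries were spread over more than their smallest value, but the eKO libraries lay close together above all of them. The log2 fold change was 1.31 (SE 0.23, a 2.48-fold rise), with an adjusted p of 0.00147 in limma, and it stayed between 1.00 and 1.61 and called in all 12 alternatives. Per kilobase, Hes1 ranked after Jag1 in control HFSC, where their ranges overlapped, and first in eKO HFSC at 603 ± 33.8 (SD, n = 3), where they did not. In skin Hes1 was at 524, 342, 452, 749 and 508 in control and at 622, 397, 763.5, 522 and 763.4 in eKO, with a fold change of 0.26 (95% interval −0.25 to 0.76).

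Hey1 and Heyl, both repressors of the Hairy-related family, were near the lower limit of measurement in HFSC. Hey1 was at 29.9, 27.3 and 13.0 in control and at 0, 20.8 and 12.8 in eKO. Its fold change of −1.78 had an interval from −3.99 to 0.42 and rests largely on the library at 0. Heyl was at 0, 3.16 and 8.00 in control HFSC and at 0, 38.4 and 54.3 in eKO HFSC, too low to be tested. Heyl was at 0 in 1 library of each genotype. In skin, Hey1 ran from 52.2 to 78.9 in control and from 54.0 to 84.3 in eKO. Heyl in skin was at 72.8, 61.6, 84.6, 645 and 139 in control and at 129, 112, 297, 265 and 90.7 in eKO; the control library at 645 was the one that also held the highest Notch1, Jag1 and control Hes1.

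**Figure D3:**
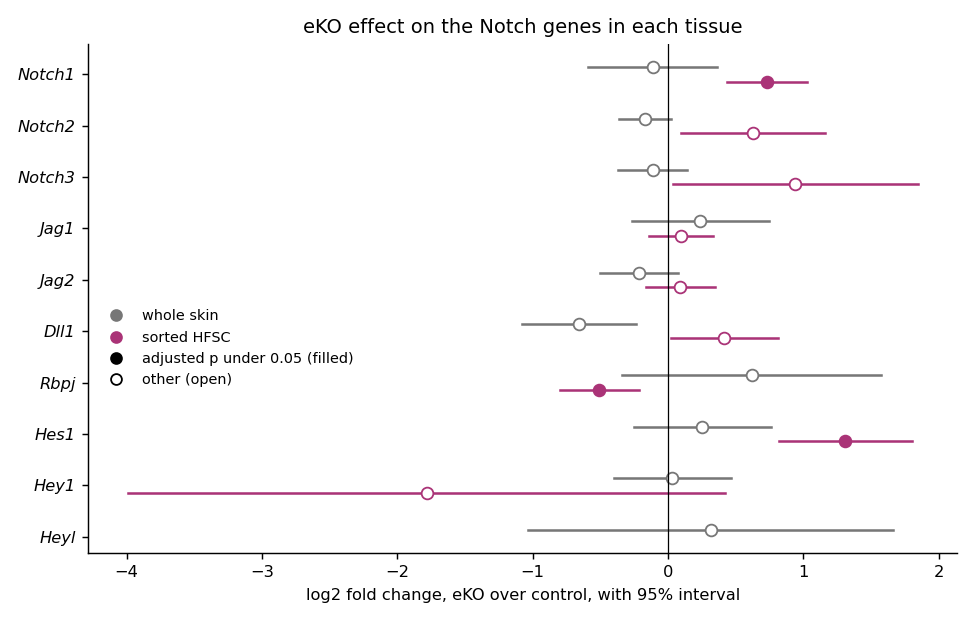
Log2 fold change of each Notch gene, eKO over control, with its 95% interval, in whole skin (grey) and in sorted HFSC (purple); filled points were called. The called points are Notch1 (0.73), Rbpj (−0.51) and Hes1 (1.31) in HFSC, and Heyl has no point in HFSC because it was too low to be tested.

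The HFSC libraries differed between genotypes in markers of other cells as well, and these values stand beside the rise of Notch1 and Hes1 and the fall of Rbpj. Summed endothelial markers were 59.0 to 83.1 in control and 1263 to 1442 in eKO. Of the 12 markers, 10 could be tested and 9 were called as higher, beside 10.7% of all genes tested. Vwf, Esam and Emcn held at most 0, 1 and 0 reads in any control library. These genes could be tested only because their eKO level passed the filter. The endothelial genes Cldn5 and Egfl7 were too low to be tested. Both were at 0 in all eKO libraries and held at most 0 and 1 reads in any control library. Dll4, the ligand of endothelial tip cells, held at most 3 reads in any HFSC library, and Notch4, the endothelial receptor, lay between 0.758 and 13.2 in all 6. Markers of differentiated epidermis summed to 5238 to 6791 in control and 19831 to 20258.5 in eKO, with 6 of 9 called as higher. Of these 9, 7 could be tested, 6 with a positive and 1 with a negative fold change. The genotypes did not overlap for any of the 7, beside 36.3% of all genes tested. The keratins Krt1 and Krt10, which mark suprabasal cells, also varied within control. They were at 750, 1150 and 1396 and at 1529, 1898 and 2673 in control replicates 1 to 3. Sebaceous gland markers summed to 2997 to 3118 in control and 12675 to 13372 in eKO, and hair matrix and shaft markers to 751 to 912 and 2687 to 2888. Leukocyte markers summed to 309 to 354 in control and 1270 to 2177 in eKO, although Ptprc, which all leukocytes carry, did not pass the test, at 14.9 and 16.6 on average. Of the 5 leukocyte markers that could be tested, 2 were called as higher and 1 as lower, and 3 of the 5 had a negative fold change. Bulge stem cell markers summed to 154370 to 157457 in control and 134289 to 153405 in eKO, a sum that is mostly Krt15; of the 9, Itga6 was called as higher and Lgr5 as lower, from 7376 ± 112 to 3833 ± 165 (SD, n = 3 each). Basal epidermis markers summed to 61887 to 62988 in control and 85344 to 95425 in eKO, and 2 of 4 were called as higher, Krt5 and Krt14. Melanocyte markers summed to 1888 to 2269.8 in control and 622 to 950.4 in eKO, with 1 of 6 called, Mitf, as lower. The part of these cells in the Notch values was not tested; in bulk RNA, a change in the share of a cell type and a change of RNA per cell cannot be told apart.

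The difference between the effects in the 2 tissues was tested directly, as the HFSC fold change minus the skin fold change. Of the 9 genes measured in both, 1 was called, Dll1, beside 5.62% of all 13227 genes tested, 3.44% as higher and 2.18% as lower. The Dll1 difference was 1.07 (log2, SE 0.29, adjusted p = 0.0377, limma), from −0.66 in skin and 0.42 in HFSC. It was not called without skin control replicate 3, skin eKO replicate 3 or 5, HFSC control replicate 2 or 3, or HFSC eKO replicate 2 or 3, where its adjusted p ran from 0.0572 to 0.0960. The differences of Notch1 (0.84, adjusted p = 0.115), Notch2 (0.80, 0.0695), Notch3 (1.05, 0.0562), Hes1 (1.05, 0.116) and Rbpj (−1.13, 0.282) did not pass, so their effects in HFSC were not shown to differ from those in skin. Some passed with 1 library left out: Notch2 without HFSC control replicate 3 (adjusted p = 0.0155) or HFSC eKO replicate 3 (0.0428), Notch3 without HFSC eKO replicate 1 (0.0104) and Hes1 without HFSC control replicate 3 (0.0488). With library size in place of the authors' size factors, the balance of all called genes moved from 455 higher and 288 lower to 368 higher and 393 lower. The tables hold mice whose labels give different ages, so tissue and age cannot be told apart in this contrast.

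The rest of the pathway was followed through 53 further genes. In skin 47 could be tested and none was called by limma, 10 of them had an unadjusted p under 0.05 (beside 14.2% of all genes), and the median fold change was 0.00 (log2). In HFSC 43 could be tested and 14 were called (32.6%, beside 19.4% of all genes), 4 as higher and 10 as lower, with a median fold change of −0.15.

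Of the 4 genes called as higher in HFSC, 3 act in receptor cleavage. Of the 10 processing genes tested, 3 were called as higher (beside 10.7% of all genes tested) and 1 as lower (beside 8.74%). Their fold changes were positive for 5 and negative for 5, with a median of 0.03 (log2). Adam10, the protease that makes the first ligand-dependent cut in the receptor, was at 1009, 773 and 907 in control and at 1671, 1643 and 1833 in eKO (log2 fold change 0.94, SE 0.12, adjusted p = 0.000138, limma), with no overlap. Adam17, a related protease, rose by 0.55 and Furin, the convertase that cleaves receptors on their way to the surface, by 0.55 as well. The call of Furin was lost in 1 of 12 alternatives. In skin, Furin averaged 1282 in control and 1772 in eKO, with overlap, and was not called. Among subunits of γ-secretase, which makes the final cut, Psen2, Ncstn, Psenen, Aph1a and Aph1b were not called, while Aph1c fell by 1.11. The corepressor gene Tle3 was the other gene called as higher, with a fold change of 0.52.

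Among the genes called as lower in HFSC, Dlk1, a non-canonical ligand that lacks the receptor-activating domain, changed most. It was at 89.8, 64.2 and 99.0 in control and at 0, 2.19 and 3.20 in eKO, where no library held more than 3 reads, and was at least 28.9-fold lower against a floor of 3 reads per library. Dlk1 could be tested in HFSC only because its control level passed the filter. Maml3, a coactivator that binds the RBPJ complex, was at 1599, 1482 and 1451 in control and at 816, 1004 and 677 in eKO, without overlap. Its log2 fold change was −0.88 (SE 0.14). Snw1, another coactivator, fell by 0.81. Maml2, which is related to Maml3, was not called, at 3775 ± 230 in control and 4217 ± 234 in eKO (SD, n = 3 each). Numb, an inhibitor of Notch, was at 2062, 2165 and 2096 in control and at 1463, 1397 and 1361 in eKO, with a fold change of −0.58 (SE 0.09). The corepressor genes Tle4 and Cir1 fell by 0.99 and 1.15, and the ubiquitin ligase genes Mib2, Neurl1b and Dtx3 fell by 0.70, 0.78 and 0.39. Of the 14, 8 stayed called without control replicate 1, 7 without control replicate 2 and 9 without control replicate 3. Dtx3 lost its call in 6 of 12 alternatives, Neurl1b in 5, Mib2 in 4 and Adam17 in 3, each time with adjusted p above 0.05 and the same direction.

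Some pathway genes were at the floor. Mfng, a glycosyltransferase that modifies receptors, held at most 2 reads in the control HFSC libraries and was at 12.9, 19.7 and 11.7 in eKO, at least 4.85-fold higher against the floor. It could be tested in HFSC only because its eKO level passed the filter, and it was not called there. Fbxw7, Nrarp, Hes5 and Maml1 were listed at 0 in all 6 HFSC libraries. An entry of 0 can also come from how reads were assigned: Gapdh, which every cell uses, was listed at 252 or less in all 16 libraries.

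**Figure D4:**
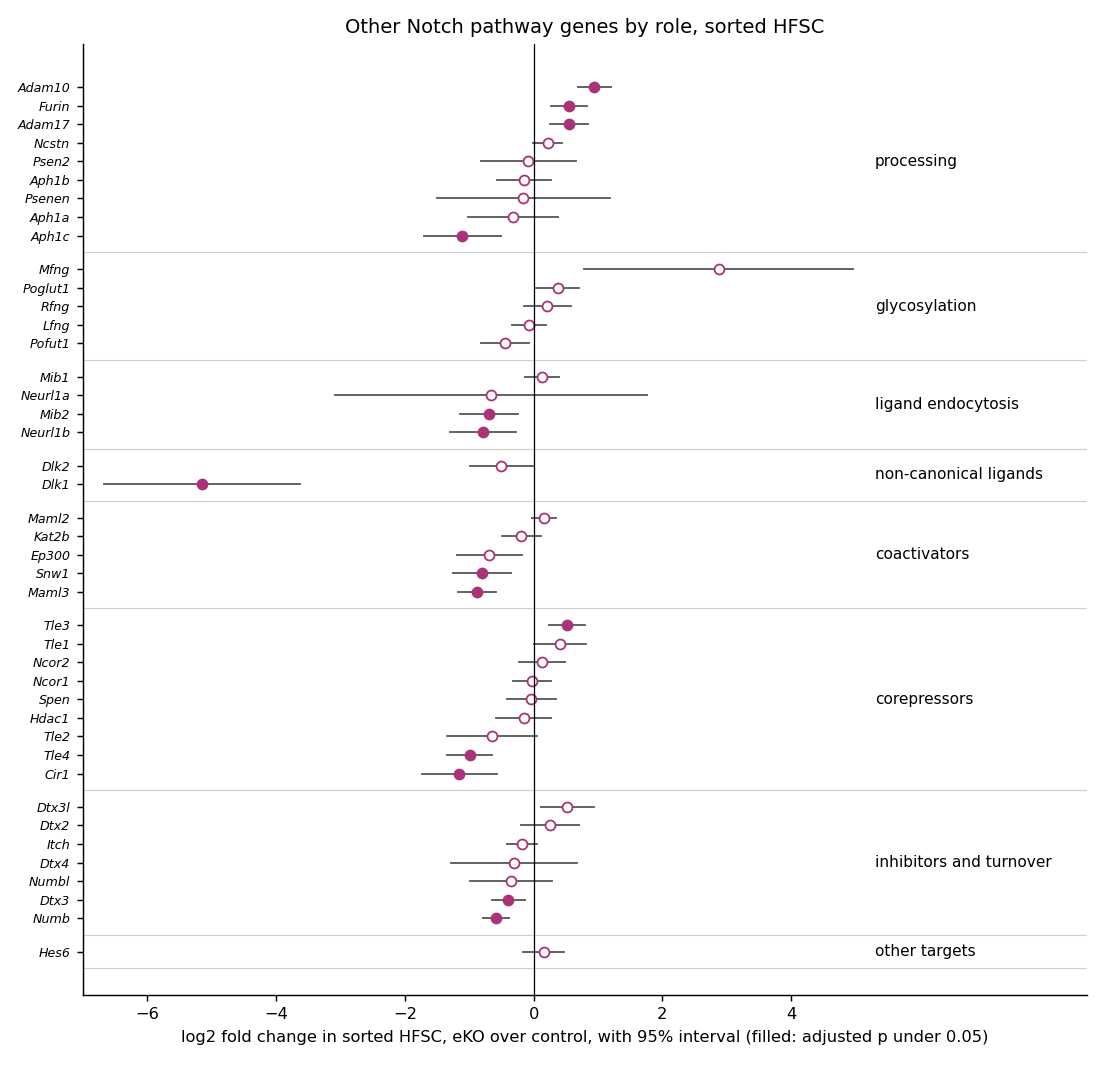
Log2 fold change in sorted HFSC, eKO over control, with its 95% interval, for 42 of the 43 further pathway genes that could be tested, grouped by role; filled points were called. Adam10 (0.94) lies at the top of the processing group and Dlk1 (−5.14) lies farthest to the left.

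Of the 53 further genes, 42 could be tested for the difference between tissues and 6 were called (14.3%, beside 5.62%). The difference was 0.84 for Adam10 (log2, HFSC minus skin), which was called in all 21 alternatives. It was −0.83 for Dtx3, whose call was lost in 2 of the 21, and −0.90 for Neurl1b, −0.98 for Cir1 and −1.31 for Tle2, whose calls were lost in 14 each. The sixth, Mfng, was tested only because its level in eKO HFSC passed the filter and had a control group at the floor; its call was lost in 15 of the 21. Of the 6, 2 stayed called without the filter on low values, 1 without HFSC control replicate 1 or HFSC eKO replicate 1, and 2 to 5 with any other library left out. Tle2 was called in neither tissue alone and is named after its values were seen. In skin, the groups did not overlap for 4 of the 47 further genes tested, beside 4.18% of all genes. Dtx3 and Tle2 were higher in all eKO than in all control libraries, at 984 against 733 and at 229 against 144 on average. Ep300 and Spen were lower in all eKO libraries, at 1136 against 1257 and at 1510 against 1828 on average. None of the 4 passed the test there.

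Within skin, Heyl was higher in libraries rich in hair matrix and shaft transcripts. A score was taken as the mean log2 level of 19 hair matrix and shaft genes; it ran from 2.40 to 12.3 in control and from 2.88 to 10.49 in eKO libraries, which overlap. Of the 10 relations with this score, that of Heyl passed for Pearson's r (0.80 over 10 libraries, permutation p = 0.0041, adjusted p = 0.0410) but not for Spearman's rho (0.78, permutation p = 0.0107, adjusted p = 0.0713). For Heyl, r was 0.87 without the 2 libraries farthest from the median score, 0.86 within control, 0.82 within eKO and 0.71 without control replicate 4. The adjusted p of the Heyl relation was above 0.05 without any 1 of 7 libraries, reaching 0.349 without control replicate 4. Notch3 (r = 0.71, rho = 0.76) and Notch1 (r = 0.66, rho = 0.65) had adjusted permutation p of 0.0838 each for r. With this score as a covariate, none of the 10 genes was called between genotypes in skin by limma.

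**Figure D5:**
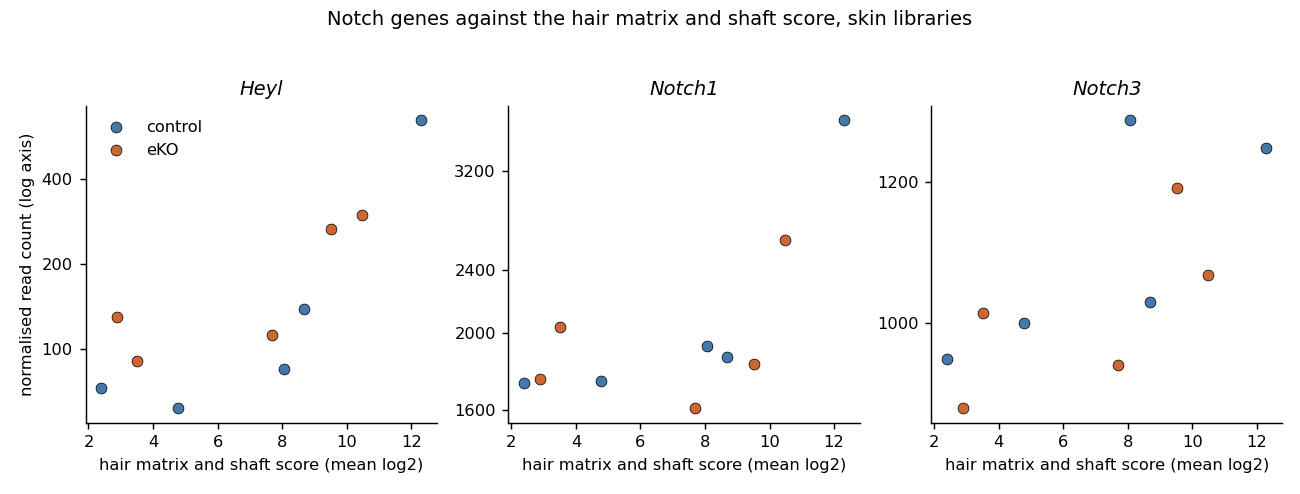
Normalised read count (log axis) of Heyl, Notch1 and Notch3 in the 10 skin libraries against the mean log2 level of the hair matrix and shaft genes, coloured by genotype. The control library with the highest score (12.3) also holds the highest Heyl (645) and Notch1 (3707).

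The genes most like each Notch gene over the 10 skin libraries, after each genotype's mean was removed, were Ctif for Notch1 (Pearson's r = 0.98), Fam214b for Notch2 (0.96), Hip1r for Notch3 (0.98), Aldh3b3 for Jag1 (0.97), Hcn3 for Jag2 (0.96), Agfg2 for Dll1 (0.97), Ccl8 for Rbpj (0.98), Cdk3-ps for Hes1 (0.96), Uros for Hey1 (0.96) and Lap3 for Heyl (0.99). These are the highest values among 16589 genes and describe likeness of pattern only. Exons of Notch1, Notch3 and Dll1 overlap genes on the opposite strand (0610009E02Rik and Gm13568, Gm17276, and A930024N18Rik), and those of Notch2 overlap Gm42820 on the same strand. Whether reads were counted by strand is not stated, so reads of these pairs may not have been told apart.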

How the data were processed

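Expression was measured by bulk RNA sequencing in 10 skin and 6 HFSC libraries. The authors deposited 1 table per tissue. The deposited values are a normalised signal: read counts divided by 1 size factor per library, from which whole reads were recovered within a tolerance of 0.01. Per the submitters' processing notes, build GRCm39 was used in both tables and featureCounts and DESeq2 in skin; the aligner, annotation, strand setting and the HFSC tools are not given in the sources used here. Names were matched by identifier to GENCODE M21. Groups came from the genotype and tissue labels. Skin replicates were numbered in accession order and pair nothing.

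The main test was limma (version 3.58.1, R 4.3.3) on log2(value + 1) with its prior following the mean level, over genes that reached 10 in 5 skin or 3 HFSC libraries, and p-values were adjusted over all of these. Differences between tissues were an interaction contrast in 1 fit of 4 group means. Relations used 100000 permutations. The scripts were tested on simulated data. Alternatives were a pseudocount of 4, no filter, library size only, edgeR (4.0.16), DESeq2 (1.42.0), each library left out, a hair covariate in skin, a replicate block in HFSC and, for the contrast, each tissue's own standard error; leaving out both skin libraries low in Y-linked reads, and the alternatives of the hair relation, were chosen after seeing the data. The 10 genes, the pathway and marker lists and the tests were chosen with earlier results of these data known. The rule named all 10 genes, pathway genes called in either tissue or at the floor, and the gene most like each. Krt85 had no matching row, and 1 pathway gene, counted in the totals, is not reported here by name or in the figure. Intervals cover 95%. A floor of 3 reads corresponds to 2.27 to 3.29 normalised counts in HFSC and covers counting error only. Same-numbered HFSC libraries did not deviate together (correlations of −0.060, −0.018 and −0.026), so the numbers do not pair them.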

Additional observations from a re-analysis of the deposited data

Results flagged for a closer look

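Among the 20 sets of 5 skin libraries examined (10 genes in 2 genotypes), 2 had a library far from the others. It was the same library in both. The sets share their libraries and are not independent, so the count was not set against a chance rate. Notch1 was at 3707 in control replicate 4, and the gap to the next library was 0.901 of the range of the group. Heyl was at 645 in the same library, with a gap of 0.868 of the range. The summed hair matrix and shaft markers of that library were 188021, against 747 to 17279 in the other control libraries.

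Differences between the effect in HFSC and the effect in skin passed the interaction test for 1 of the 10 Notch genes and 6 of the further pathway genes: Dll1 (1.07), Adam10 (0.84), Mfng (2.45), Neurl1b (−0.90), Cir1 (−0.98), Tle2 (−1.31) and Dtx3 (−0.83), all as log2 HFSC minus skin. The calls of Neurl1b, Cir1 and Tle2 were lost in 14 of 21 alternatives each, that of Mfng, whose control HFSC libraries were at the floor, in 15, that of Dll1 in 8 and that of Dtx3 in 2.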

How the results depend on the processing

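Of 761 alternative values for 48 gene fold changes, 652 kept direction and side of the threshold, 95 lost the call, 6 gained it and 8 reversed. In skin, 62 genes were called over the whole table: 37 without the filter, 32 with library size only, 656 with DESeq2, 147 with the hair covariate, 10 to 57 with 1 library left out, and 0 by limma without both libraries low in Y-linked reads (1790 genes at an unadjusted p under 0.05; no other tool was run there). All 10 Notch genes stayed uncalled in skin under each of these. In HFSC, leaving out 1 library gave 1519 to 2620 genes, and for the difference between tissues 484 to 896. The count of Notch genes related to the hair score was 1, or 3 with library size only (Notch1 and Notch3 besides Heyl) and 0 to 2 with 1 library left out.

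Reversed directions were those of Heyl in skin with edgeR (−0.18) and DESeq2 (−0.18), and, over the libraries left out in turn, of Notch1 in skin (−0.22 to 0.10), Hey1 in skin (−0.052 to 0.11), Jag2 in HFSC (−0.035 to 0.17) and the Pearson's r with the hair score of Notch2 (−0.13 to 0.35) and Hes1 (−0.021 to 0.41). The cause of these changes was not tested.

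With a replicate block in HFSC, 2696 genes were called in place of 2673 and 749 in place of 743 for the difference between tissues. The calls of Notch1, Hes1 and Rbpj in HFSC held; for the difference, Dll1 had an adjusted p of 0.0554 and Notch3 of 0.00576 with the block. Hey1 and Heyl were low in HFSC, where libraries at 0 allow up to 3 reads. Both were at 0 in eKO replicate 1, the deepest HFSC library at 9.39 M reads, and Heyl also in control replicate 1.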
